A study of Mus musculus with 12 samples.

Results

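Of the genes of axon guidance and neuronal adhesion that the array measures, 42 were followed in the mouse hippocampus 1 h after kainate or saline was injected. Kainate activates ionotropic glutamate receptors and brings on seizures. Members were chosen by symbol. They are the protocadherins (Pcdh), cadherins (Cdh), contactins and contactin-associated proteins (Cntn), neurexins and neuroligins (Nrxn, Nlgn), Eph receptors and ephrins (Eph, Efn), semaphorins and plexins (Sema, Plxn), Robo and Slit proteins, netrins with netrin-G and Unc5 receptors (Ntn, Unc5), and the leucine-rich repeat families Lrrtm, Lrrn and Lrrc4. The platform annotation held 56 symbols that match on 78 probe sets. A gene was kept when a probe set with that single symbol exceeded a log2 value of 4 in 3 or more of the 12 arrays, and of its probe sets past that filter the one with the highest mean stands for it. That left 42 genes, of 4617 genes and 6334 probe sets that passed the same filter. No neuroligin probe set was among them. Lrrc40, Lrrc42 and Lrrc47 match the Lrrc4 pattern by their letters alone and are kept apart from the adhesion genes.

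The 4 groups, of 3 arrays each, were labelled mutant animals given kainate, control animals given kainate, labelled mutant animals given saline and control animals given saline. The dose of kainate was 20 mg/kg by intraperitoneal injection, and the mice were male and female littermates of 5 to 6 weeks. In all groups the mice were handled for 5 days. Per the title, the mutation studied removes CREB and CREM, transcription factors that respond to cAMP and to calcium. The sources used here do not give the alleles or any Cre driver behind the word mutant, nor the genotype of the control littermates. Each array carried hippocampal RNA pooled from 3 animals, so an array is a pool and not an animal. The replicates are described as biological, and all 4 groups share the array numbers 1, 2 and 3.

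Guidance cues are secreted or membrane-bound ligands that steer growing axons through receptors on the growth cone. Netrins act through Dcc and Unc5 receptors, Slits through Robo receptors, semaphorins through plexins, often with a neuropilin as partner, and ephrins through Eph receptor tyrosine kinases. Cadherins, protocadherins, contactins, neurexins and leucine-rich repeat proteins hold membranes together and organise synapses. In the mature hippocampus many of these proteins remain on dendrites, axons and synapses, where activity is known to alter their synthesis and their shedding.

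The arrays were Affymetrix MG-U74B, and the deposited log2 values are GCRMA summaries. Array medians lay between 3.77 and 4.07, and 5741 to 6378 probe sets per array exceeded 4. Precision is limited by there being 3 arrays a group. The Creb1 probe set was higher in the arrays labelled mutant, at 7.97 ± 0.439 against 6.98 ± 0.154 in control arrays after kainate, and at 8.23 ± 0.117 against 7.35 ± 0.350 in control arrays with saline (SD, n = 3 each). The Crem probe set lay at background, with group means from 2.93 to 3.16. The sources used here do not place the Creb1 probes inside or outside the deletion, so the arrays are called labelled mutant throughout and each genotype direction below rests on that label. The arrays numbered 1 stood apart from those numbered 2 and 3 in every group. Deviations from the group means correlated between arrays of the same number with r from 0.361 to 0.881 over all 18 pairs, while number 1 correlated with numbers 2 and 3 at r from -0.782 to -0.477. The difference between the 3′ and 5′ control probe sets of pyruvate carboxylase, a measure of RNA integrity and labelling, was 5.34 to 5.55 on arrays numbered 1 and 4.40 to 5.14 on the others. That of Gapdh ran the other way, at -0.42 to -0.36 on arrays numbered 1 and -0.33 to -0.03 on the others, while those of beta-actin and the transferrin receptor overlapped. Principal neuron markers (Fibcd1, Bcl11b, Neurod2, Slc17a7 and Calb1, the 5 measured of 12 listed) were over 4 in all arrays of this hippocampal tissue, and 6 of 7 measured astrocyte markers were over 4 in all arrays too.

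CREB acts through the cAMP response element TGACGTCA and its shorter forms TGACG and CGTCA, so the promoters of the members were read for these letters on both strands. RefSeq windows of GRCm38.p6, from 250 bases before to 50 bases after a transcription start, were found for 33 of the 42 genes, 41 windows in all. The full element was in 0 of the 41 windows and in 1.79% of all 32851 windows. A short form, which every full element also contains, was in 6 of the 41 windows (14.6%) and in 20.8% of all windows. Windows of a gene can overlap, and among the 6 are overlapping windows of Pcdh9 that hold the same site. Another is a window of Lrrc40, a gene matched by letters alone. Shown are a window of Epha7, the gene with the lowest averaged difference between labelled mutant and control arrays, and windows of Ephb1 and Pcdh9, which each hold a short form. The Epha7 window is chr4:28812881-28813180 on the plus strand, the Ephb1 window chr9:102354644-102354943 on the minus strand and the Pcdh9 window chr14:93890630-93890929 on the minus strand. The short form, in capitals, begins 3 bases before the start in Ephb1 and 52 bases before it in Pcdh9, and the Epha7 window has no capitals because it holds none of the motifs.
Epha7: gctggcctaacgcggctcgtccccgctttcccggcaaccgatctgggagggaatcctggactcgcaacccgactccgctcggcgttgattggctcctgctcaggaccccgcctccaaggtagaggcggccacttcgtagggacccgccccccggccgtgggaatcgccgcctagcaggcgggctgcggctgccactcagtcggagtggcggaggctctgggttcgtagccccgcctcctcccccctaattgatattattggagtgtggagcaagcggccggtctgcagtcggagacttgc
Ephb1: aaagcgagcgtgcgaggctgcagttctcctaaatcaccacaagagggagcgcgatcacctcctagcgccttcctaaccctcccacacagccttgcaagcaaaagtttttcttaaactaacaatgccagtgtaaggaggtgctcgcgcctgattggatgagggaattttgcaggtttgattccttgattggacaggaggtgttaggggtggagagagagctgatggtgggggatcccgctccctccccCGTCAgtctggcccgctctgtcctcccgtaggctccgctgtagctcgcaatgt
Pcdh9: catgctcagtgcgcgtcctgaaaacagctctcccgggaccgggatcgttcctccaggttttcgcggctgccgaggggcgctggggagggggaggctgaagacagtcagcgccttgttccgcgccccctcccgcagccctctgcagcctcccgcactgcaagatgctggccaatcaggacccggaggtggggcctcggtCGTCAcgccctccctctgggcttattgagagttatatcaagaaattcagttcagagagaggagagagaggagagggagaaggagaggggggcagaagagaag
These matches describe letters in a window and do not show binding.

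The first question was which of these genes kainate changed. No member passed when the arrays were fitted without regard to their numbers, in either genotype or averaged over both. The array number was then fitted as a block, which removes a level offset shared by arrays of the same number. It does not remove a kainate response that differs between array numbers. With the block, 7 members passed in the comparison averaged over genotypes. Slit3, Ephb1 and Cntnap1 were higher after kainate, and Pcdh7, Pcdh9, Epha7 and Plxna2 were lower. The sizes ran from 0.83 higher (Slit3, 1.78-fold) to 1.13 lower (Pcdh7, 2.19-fold) on the log2 scale. The 7 were 16.7% of the members, against 7.63% of all tested probe sets. Higher were 3 members (background 2.21%) and lower were 4 (background 5.42%).

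The counts rest on the arrays numbered 2 and 3. In the fits of the block that left out 1 array, 6 to 10 members passed without an array numbered 1. Leaving out any one array numbered 2 or 3 left 0 members, except that without control saline array 3 there was 1. Without all arrays numbered 1, and with no block, 13 members passed (31% of the members, background 22.3%). With the block after quantile normalization, 4 of the 7 passed, namely Slit3, Ephb1, Pcdh9 and Epha7 (9.52% of the members, background 5.87%). The changes of the 7 kept their direction in every one of these fits. In bulk RNA, fewer cells of a type and less RNA per cell cannot be told apart.

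**Figure D1:**
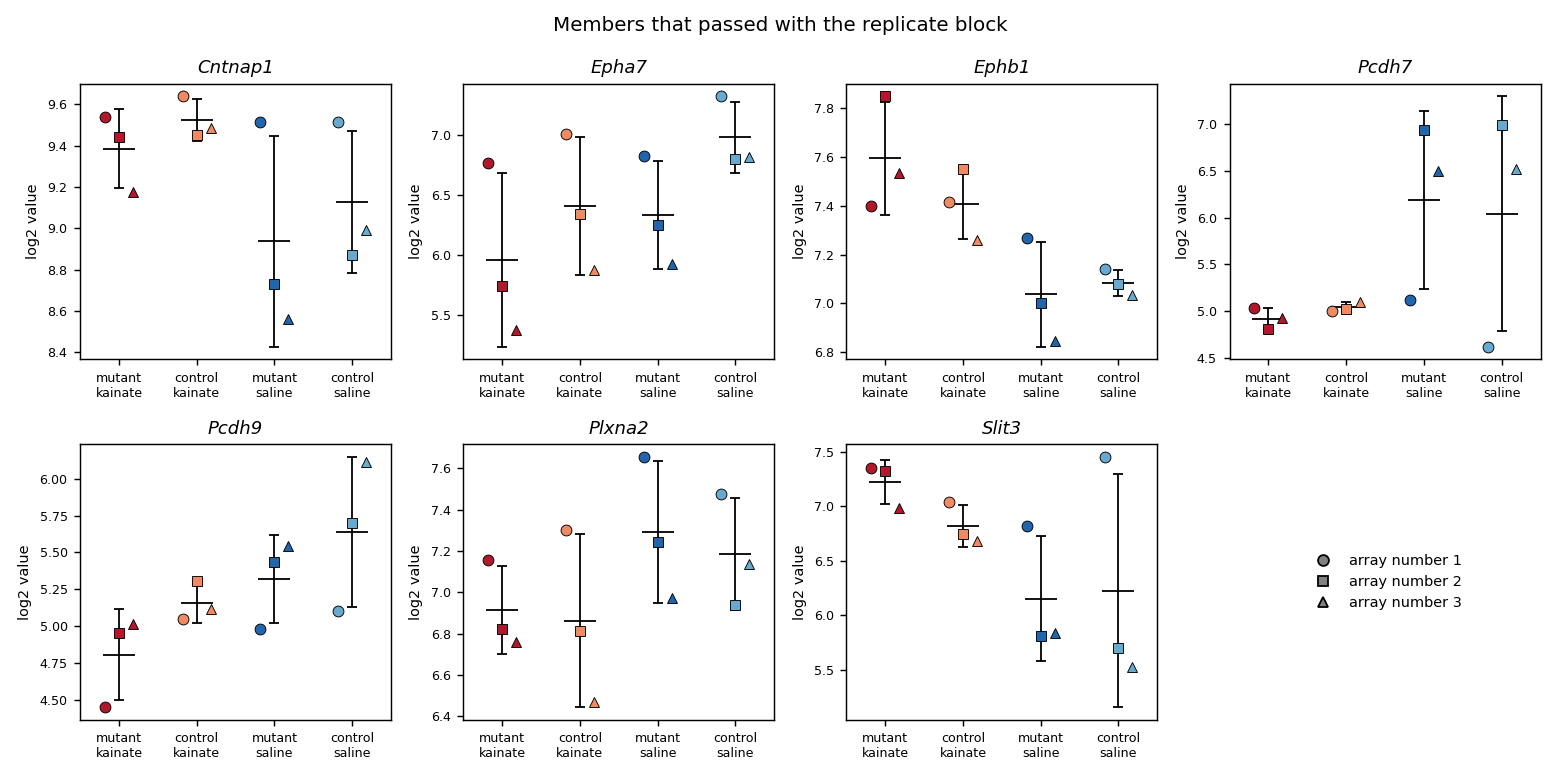
Log2 values of the 7 members that passed with the array number as a block, by group, in arrays numbered 1 (circles), 2 (squares) and 3 (triangles), with the mean (long line) and SD (bars, n = 3); each panel has its own vertical axis. Pcdh7 lies between 4.81 and 5.10 in all kainate arrays, while its saline arrays numbered 2 and 3 lie between 6.50 and 6.99 and its saline arrays numbered 1 at 5.12 and 4.62.

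Among the ligands, the Slit3 probe set had the highest change. Whether its probes match Slit3 alone was not checked. Slits are secreted proteins that repel axons and branch them through Robo receptors. In the order of array numbers 1, 2 and 3, used for all values that follow, Slit3 had log2 values of 7.35, 7.33 and 6.99 in labelled mutant arrays after kainate and 7.04, 6.74 and 6.68 in control arrays after kainate. It had 6.81, 5.81 and 5.84 in labelled mutant arrays with saline and 7.45, 5.69 and 5.52 in control arrays with saline. In labelled mutant arrays the treatments did not overlap, while in control arrays the saline array numbered 1 held the highest value of the 6. The change averaged over genotypes was 0.83 (SE 0.321, limma adjusted p = 0.271) and passed with the block (SE 0.205, adjusted p = 0.0405). Without the arrays numbered 1 it was 1.22. Slit2 lay between 4.64 and 5.48, and was higher after kainate in all 6 same-numbered pairs, by 0.02 to 0.41, with an averaged change of 0.25 that did not pass (adjusted p = 0.36, with the block 0.118).

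The 6 measured semaphorins were Sema3c and Sema3g, which are secreted, and Sema4g, Sema5b, Sema6a and Sema6d, which cross the membrane. None of them passed for kainate, with averaged changes between -0.23 (Sema6d) and 0.51 (Sema3c). Sema6d lay at 8.30 to 9.02 and was lower after kainate in all 6 same-numbered pairs, by 0.0011 to 0.43. Sema6a was lower in all 6 pairs too, by 0.02 to 0.28, at values of 4.36 to 4.89. Sema3c lay between 5.08 and 7.01. Its arrays numbered 2 and 3 were higher after kainate, by 0.93 on average (adjusted p = 0.00421 in those arrays alone), while the array numbered 1 was lower after kainate in both genotypes. A second Sema3c probe set went the other way, with 7.07, 5.25 and 5.05 in labelled mutant arrays after kainate and 6.67, 5.75 and 6.18 in labelled mutant arrays with saline. In control arrays it had 5.84, 4.74 and 4.90 after kainate and 6.25, 5.39 and 5.37 with saline, and its averaged change was -0.46 (-0.69 in the arrays numbered 2 and 3, adjusted p = 0.00392). The direction of Sema3c therefore depends on the probe set. Sema3g (4.27 to 4.90), Sema4g (3.98 to 5.04) and Sema5b (4.93 to 5.53) had averaged changes of 0.10, 0.20 and -0.03.

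None of the remaining ligands passed. Ntn3, a secreted netrin, lay between 3.99 and 4.43, close to the filter. Ntng1, a membrane-anchored netrin-G that binds the postsynaptic protein encoded by Lrrc4c, lay between 4.75 and 5.43, with an averaged kainate change of -0.04. The ephrins Efna3 and Efna5, membrane-anchored ligands of EphA receptors, lay at 6.62 to 7.27 and 4.25 to 4.61, with changes of -0.03 and 0.07. For these 4 genes the 95% intervals of the averaged kainate change reached no further than 0.334 below 0 and 0.275 above it.

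Of the receptors, the Eph receptor tyrosine kinases Ephb1 and Epha7 went in opposite directions. Ephb1, a receptor of ephrin-B ligands that takes part in dendritic spine formation, had 7.40, 7.85 and 7.53 in labelled mutant arrays after kainate and 7.27, 6.9999 and 6.85 in labelled mutant arrays with saline. Control arrays had 7.41, 7.55 and 7.26 after kainate and 7.14, 7.08 and 7.03 with saline. All 6 kainate values lay above the saline values of their own genotype, and no array number was the highest in all 4 groups. The averaged change of Ephb1 was 0.44 (1.36-fold, SE 0.108), with limma's adjusted p = 0.127, the lowest of all members, and 0.0319 with the block. Of the unblocked fits that left out 1 array, it passed in the one without the labelled mutant kainate array numbered 1 (0.49, adjusted p = 0.0429).

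Epha7, a receptor of ephrin-A ligands that limits dendrite growth and shapes synapses, was lower after kainate and also lower in labelled mutant arrays. Its log2 values were 6.77, 5.75 and 5.37 in labelled mutant arrays after kainate and 7.01, 6.34 and 5.88 in control arrays after kainate. With saline they were 6.82, 6.25 and 5.93 in labelled mutant arrays and 7.32, 6.80 and 6.81 in control arrays. The array numbered 1 was the highest of each group, by 0.84 on average over the other two, and the groups overlapped. Within each number all 12 differences went one way, lower after kainate by 0.05 to 0.94 and lower in labelled mutant arrays by 0.24 to 0.89. The averaged kainate change was -0.47 (SE 0.277, adjusted p = 0.465), and with the block its SE was 0.108 and its adjusted p = 0.0346.

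Plexins, the receptors of semaphorins, were represented by Plxna2, Plxna4 and Plxnb1. Plxna2 had 7.16, 6.82 and 6.76 in labelled mutant arrays after kainate and 7.65, 7.24 and 6.97 in labelled mutant arrays with saline. In control arrays it had 7.30, 6.81 and 6.47 after kainate and 7.47, 6.94 and 7.14 with saline. It was lower after kainate in every same-numbered pair, by 0.13 to 0.67, though the groups overlapped. Its averaged change was -0.35 (adjusted p = 0.377, with the block 0.0429), and a second Plxna2 probe set had -0.39 (with the block 0.0649). Plxna4 (7.82 to 8.48) and Plxnb1 (6.49 to 7.29) had averaged changes of -0.07 and 0.06. A second probe set of Plxnb1, a receptor of Sema4 ligands, had 0.29.

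The netrin receptors Unc5a and Unc5b, which mediate repulsion, had averaged kainate changes of 0.37 and 0.17. Unc5a lay at 7.79 to 9.11. Its saline arrays numbered 1, at 9.11 and 9.004, were the highest of all 12, whereas in the arrays numbered 2 and 3 kainate values were higher by 0.69 on average (adjusted p = 0.0038 in those arrays alone). Unc5b lay at 4.04 to 4.84. Robo4, a Robo family member known from endothelium, lay at 4.22 to 4.88 with an averaged change of 0.16.

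Of the adhesion molecules, the protocadherins Pcdh7 and Pcdh9 were lower after kainate. Both are non-clustered protocadherins, single-gene cadherin relatives of neuronal membranes. Pcdh7 had 5.04, 4.81 and 4.92 in labelled mutant arrays after kainate and 5.12, 6.94 and 6.50 in labelled mutant arrays with saline. Its values in control arrays were 5.01, 5.03 and 5.10 after kainate and 4.62, 6.99 and 6.51 with saline. The 4 saline arrays numbered 2 and 3 stood above all kainate arrays, while of the saline arrays numbered 1 the labelled mutant one lay just above the highest kainate value and the control one below the lowest. The averaged change of Pcdh7 was -1.13 (adjusted p = 0.243, with the block 0.0488), and it was -1.77 without the arrays numbered 1 (adjusted p = 9.1e-05). In the block after quantile normalization it did not pass.

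Pcdh9 had 4.45, 4.95 and 5.02 in labelled mutant arrays after kainate and 4.98, 5.44 and 5.54 in labelled mutant arrays with saline. In control arrays it had 5.05, 5.30 and 5.12 after kainate and 5.10, 5.70 and 6.12 with saline. It was lower after kainate in all 6 pairs, by 0.06 to 0.999, and its arrays numbered 1 were the lowest of each group. The averaged change was -0.50 (SE 0.180, adjusted p = 0.248, with the block 0.0292). The other protocadherins did not pass. Pcdh19 was the steadiest, with all 12 arrays between 8.62 and 8.78. Pcdh17 lay at 7.15 to 7.59 and Pcdh10 at 4.57 to 5.90, where the arrays numbered 1 were higher by 0.98 on average. Pcdhb7 (3.58 to 4.21) and Pcdhb22 (3.72 to 4.43) belong to the clustered beta protocadherins, whose near-identical copies the probes may not tell apart, and they exceeded 4 in 4 and 3 arrays.

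Cntnap1, the contactin-associated protein of the junction between axon and myelin, was higher after kainate. It had 9.54, 9.44 and 9.17 in labelled mutant arrays after kainate and 9.52, 8.73 and 8.56 in labelled mutant arrays with saline. Control arrays had 9.64, 9.45 and 9.48 after kainate and 9.52, 8.87 and 8.99 with saline. The difference was smallest in the arrays numbered 1, and the arrays numbered 2 and 3 were higher after kainate by 0.60 on average. The change over all arrays was 0.42 (1.34-fold, adjusted p = 0.297, with the block 0.0421), and it did not pass in the block after quantile normalization. Its partner Cntn1 lay at 8.80 to 10.20 with a change of -0.32 that did not pass, and -0.61 without the arrays numbered 1 (adjusted p = 0.00131). A second Cntn1 probe set had -0.52 (adjusted p = 0.225, with the block 0.0841). Cntn2, a related contactin, lay at 6.01 to 7.02 with 0.13, while its second probe set had -0.18.

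The cadherins Cdh4 (4.06 to 4.76), Cdh10 (7.63 to 8.46) and Cdh13 (6.09 to 6.65) did not pass. Cdh13, a cadherin held to the membrane by a lipid anchor, was higher after kainate in all 6 pairs, by 0.0076 to 0.47, with a change of 0.25 (adjusted p = 0.271, with the block 0.0907). A second Cdh13 probe set had 0.44 and passed with the block (adjusted p = 0.0411), and another had 0.18. The presynaptic neurexins Nrxn2 (5.26 to 6.99) and Nrxn3 (9.63 to 10.01) had changes of -0.22 and 0.09. Lrrtm1, a postsynaptic partner of neurexins, lay at 7.75 to 8.57 with 0.03, and Lrrn3, a neuronal leucine-rich repeat protein, at 7.57 to 7.96 with 0.10.

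Lrrc4c and Lrrc4b encode postsynaptic adhesion proteins of the netrin-G ligand family, and in every group the array numbered 1 was the lowest of the 3 for Lrrc4c and the highest for Lrrc4b. For Lrrc4c in control arrays after kainate it was close to the array numbered 3. Lrrc4c had 5.33, 6.41 and 6.28 in labelled mutant arrays after kainate and 5.25, 6.13 and 5.86 in labelled mutant arrays with saline. In control arrays the values were 6.63, 7.31 and 6.65 after kainate and 4.82, 6.01 and 6.74 with saline. Its averaged change of 0.63 had a 95% interval of -0.10 to 1.36 and did not pass. Lrrc4b exceeded 4 only in arrays numbered 1, which were higher by 1.71 on average, and its interval ran from -1.57 to 1.07. The 3 genes matched by letters, Lrrc40 (6.83 to 7.59), Lrrc42 (5.87 to 6.87) and Lrrc47 (6.48 to 7.44), had changes of -0.03, -0.18 and 0.18.

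**Figure D2:**
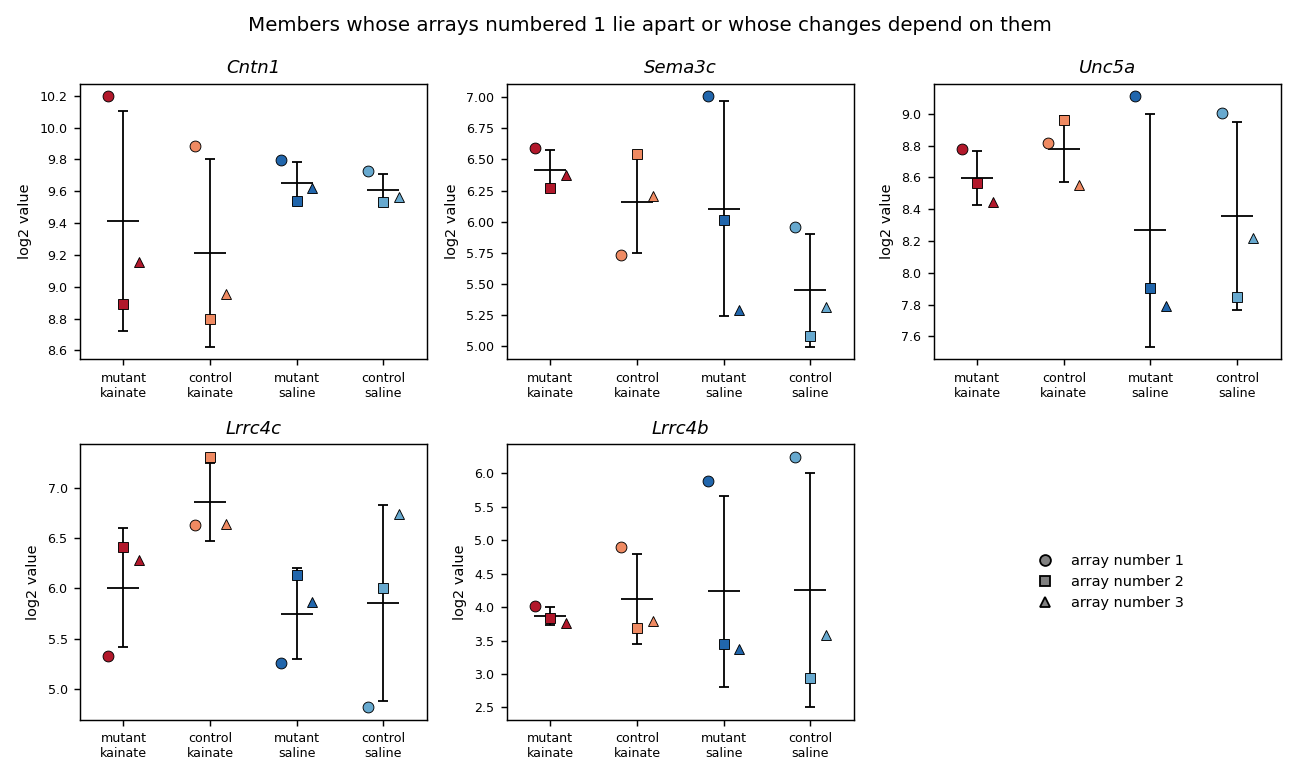
Log2 values of 5 members by group, in arrays numbered 1 (circles), 2 (squares) and 3 (triangles), with the mean (long line) and SD (bars, n = 3). The saline arrays numbered 1 lie highest for Unc5a (9.11 and 9.004) and Lrrc4b, and the arrays numbered 1 lie lowest in each group for Lrrc4c.

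Over the whole set, the arrays numbered 1 lay above both others in all 4 groups for 10 of the 42 members (23.8%, background 21.3%) and below both for 5 (11.9%, background 14.3%). The shares were near those of all probe sets. After kainate, 9 members went the same way in all 6 same-numbered pairs (21.4%, background 11.4%). Higher were Cdh13, Cntnap1, Ephb1 and Slit2 (background 4.36%), and lower were Epha7, Pcdh9, Plxna2, Sema6a and Sema6d (background 6.99%).

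Within labelled mutant animals, 0 of 42 members passed for kainate (limma, background 0.174%), 3 had an unadjusted p under 0.05 (7.14%, background 6.28%), and the lowest adjusted p was 0.572 (Ephb1). With the block the count was 0 as well (background 0.363%). The highest changes were those of Slit3 (1.07), Ephb1 (0.55) and Cntnap1 (0.45), and the lowest those of Pcdh7 (-1.26), Nrxn2 (-0.62) and Pcdh9 (-0.51). Kainate and saline values did not overlap for Slit3, Ephb1 and Pcdh17, which were higher (background 3.66%), and for Pcdh7, which was lower (background 5.46%). Those 4 were 9.52% of the members, against 9.13% of all probe sets. The change of Pcdh17 was 0.13, while a second Pcdh17 probe set had -0.03 with overlapping values. In the arrays numbered 2 and 3 alone, 6 members passed (14.3%, background 9.41%).

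Within control animals, 0 of 42 members passed too (background 0.158%), 2 had an unadjusted p under 0.05 (4.76%, background 11.6%), and the lowest adjusted p was 0.424, with 0 members passing with the block (background 0.584%). The highest changes were those of Lrrc4c (1.01), Sema3c (0.71) and Slit3 (0.60), and the lowest those of Pcdh7 (-0.999), Epha7 (-0.57) and Pcdh9 (-0.48). Values did not overlap for 7 members, all higher after kainate (16.7%, background 13.1%), namely Lrrn3, Cdh13, Sema3g, Ephb1, Robo4, Pcdhb7 and Sema4g, and for 0 lower (background 6.27%). The median change of the members was 0.12, against 0.02 for all probe sets. With arrays centred on their medians, the median of all probe sets moved to -0.12 and 7 of the 42 signs turned, among them none of the 3 highest and 3 lowest changes. In the arrays numbered 2 and 3 alone, 8 members passed (19%, background 10.1%).

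Averaged over genotypes, 0 members passed without the block (background 0.41%), and 6 had an unadjusted p under 0.05 (14.3%, background 14.7%). The members' median was 0.06, against 0.01 over all probe sets. The median 95% half-width of a member's change without the block was 0.294, so changes of that size were not detectable for most members in that fit. The median SE was 0.133 without the block and 0.093 with it. Of the 3 measured interneuron markers (Gad2, Cnr1 and Maf) all were below 0 for kainate, with a median of -0.50. Their summed level, as the log2 value of the summed linear values, was 10.37 to 10.82 in labelled mutant and 10.28 to 10.45 in control arrays after kainate, and 10.51 to 10.89 in labelled mutant and 10.70 to 10.97 in control arrays with saline. Both measured oligodendrocyte markers (Mobp and Ermn) were below 0 too, with a median of -0.33 and summed levels of 8.36 to 9.18 and 8.59 to 9.15 in labelled mutant and control arrays after kainate, and 8.80 to 9.26 and 9.04 to 9.39 in labelled mutant and control arrays with saline. With the block 1 interneuron, 1 oligodendrocyte and 1 of the 7 astrocyte markers passed as lower. Clic6, the 1 measured choroid plexus marker of 10 listed, had an averaged change of -0.96 that did not pass. It lay at 5.08 to 6.83 in labelled mutant and 4.19 to 5.76 in control arrays after kainate, and at 5.30 to 7.02 in labelled mutant and 6.28 to 6.72 in control arrays with saline. These markers too were chosen with earlier results of these data known, so their changes are not independent evidence. Their part in the member changes was not tested.

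**Figure D3:**
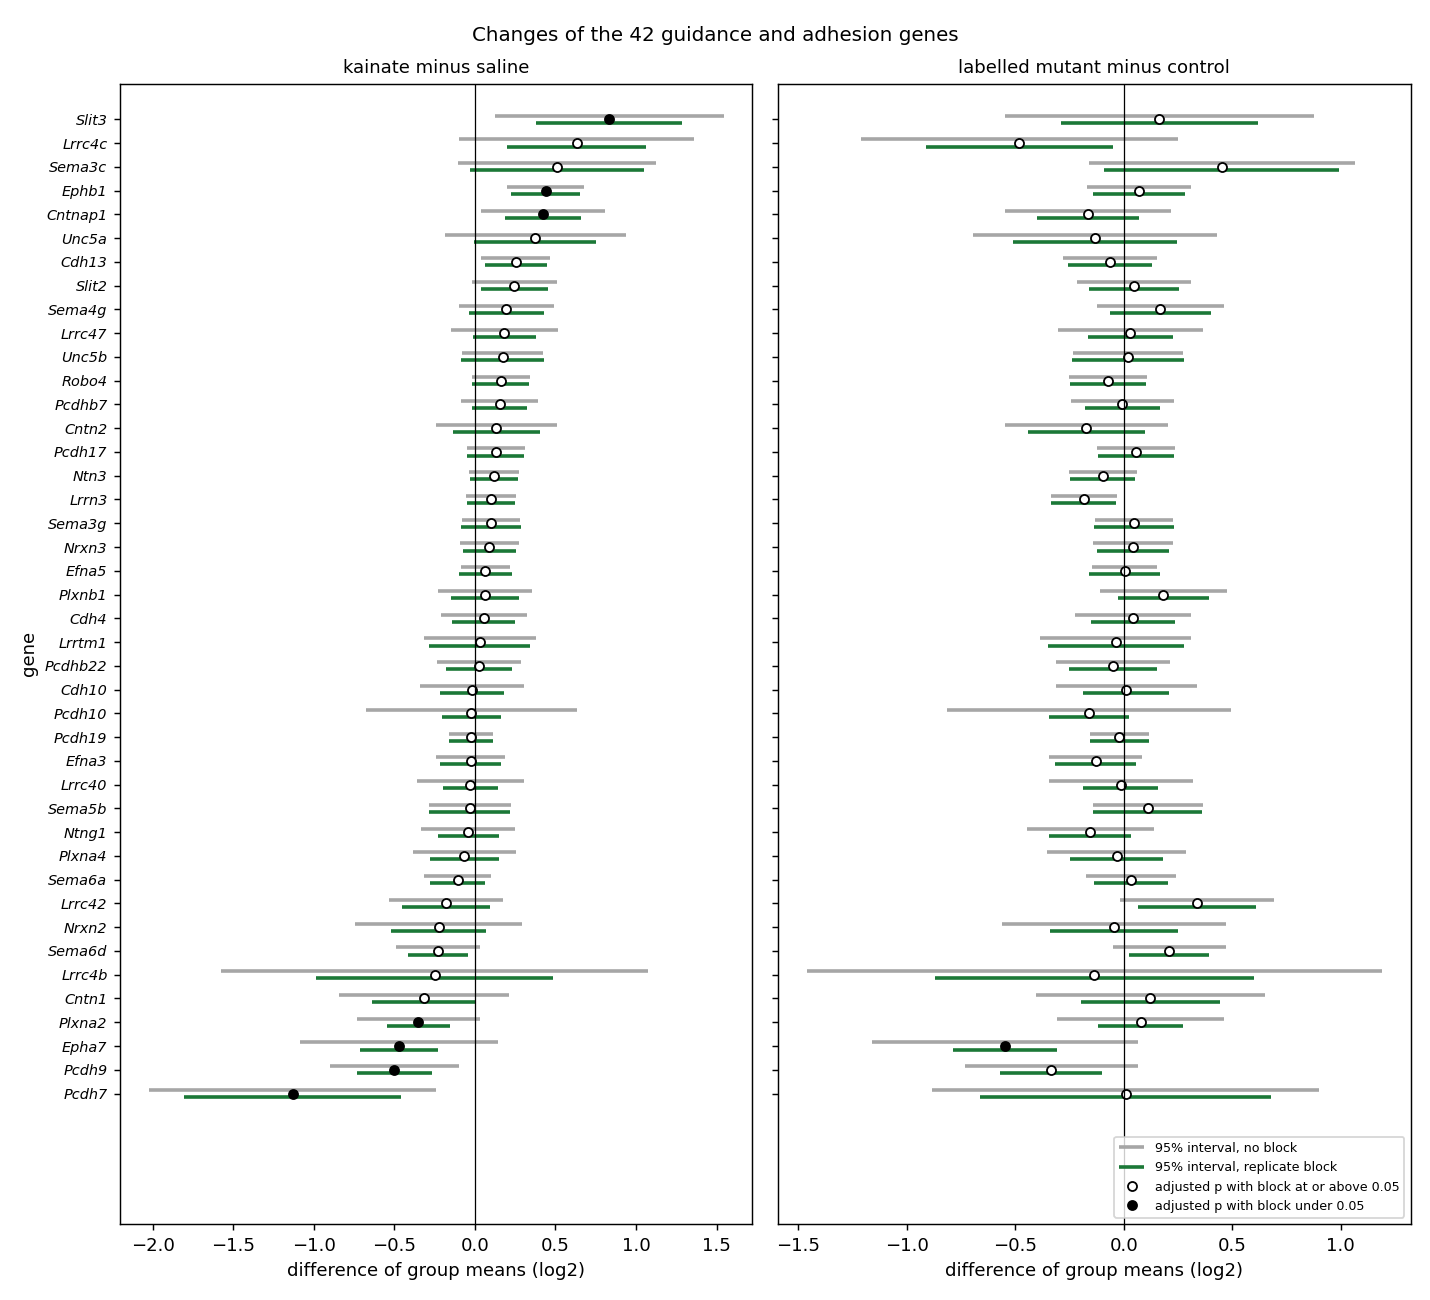
Differences of group means (log2) for all 42 members, ordered by the kainate change, for kainate minus saline averaged over genotypes (left) and labelled mutant minus control averaged over treatments (right). Grey lines are 95% intervals without the block, green lines with it, and filled points have an adjusted p under 0.05 with the block: 7 members on the left and Epha7 alone on the right.

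The second question was whether the kainate response of these genes differed between the genotypes. It was not shown to differ for any member. In the test of the difference of responses, 0 of 42 passed with or without the block (background 0%), 0 had an unadjusted p under 0.05 (background 2.32%), and the lowest adjusted p was 1.00, or 0.545 with the block. The highest differences were those of Slit3 (0.47), Lrrc47 (0.43) and Lrrc40 (0.26), and the lowest those of Nrxn2 (-0.80), Lrrc4c (-0.75) and Sema3c (-0.40). The median 95% half-width without the block was 0.588, so a difference of that size would not have been seen for most members in that fit. The median SE was 0.265 without the block and 0.185 with it. Under median centring 15 of the 42 signs turned, and the median over all probe sets moved to 0.17.

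The third question was how labelled mutant and control hippocampi differed. Epha7 was the one member that passed, and only with the array number as a block, averaged over treatments. Its difference was -0.55 (1.46-fold lower, SE 0.277, limma adjusted p = 0.862), and with the block the SE was 0.108, the 95% interval -0.79 to -0.31 and the adjusted p = 0.0313. The 1 member was 2.38% of the set, against 2.32% of all probe sets called with the block, or 1.52% called lower and 0.805% called higher. The call was kept in 2 of the 12 blocked fits that left out 1 array, those without the control saline or the labelled mutant kainate array numbered 1, with the adjusted p reaching 0.0924 in the others. With only the arrays numbered 2 and 3 the difference was -0.63 (adjusted p = 0.094), and with the block after quantile normalization it passed at -0.55 (adjusted p = 0.0293, background 1.97%).

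Epha7 differed by -0.45 after kainate and by -0.65 with saline. Neither passed (adjusted p = 0.921 and 1.00, with the block 0.283 and 0.173). Pcdh9 differed by -0.33 averaged over treatments (limma adjusted p = 0.91, with the block 0.174). It was lower in labelled mutant arrays in all 6 same-numbered pairs, by 0.10 to 0.60. Beside these differences, 4 of the 5 measured principal neuron markers were below 0, with a median of -0.40, and 2 passed as lower with the block. Their summed level was 11.27 to 11.32 in labelled mutant and 11.51 to 11.55 in control arrays after kainate, and 11.10 to 11.42 in labelled mutant and 11.25 to 11.54 in control arrays with saline. The 5 measured microglia markers were all above 0, with a median of 0.62, and 1 of them passed without the block and 4 with it. Their summed level was 9.22 to 9.62 in labelled mutant and 8.72 to 8.74 in control arrays after kainate, and 9.0003 to 9.42 in labelled mutant and 8.57 to 8.73 in control arrays with saline. Of 7 astrocyte markers 6 were above 0, with a median of 0.23, and 3 passed as higher with the block. The markers were chosen with earlier results of these data known, so their counts are not independent evidence of a shift. The part of these marker differences in the Epha7 difference was not tested.

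Averaged over treatments and without the block, 0 of 42 members passed (background 0.253%), 1 had an unadjusted p under 0.05 (background 6.47%), and the median was -0.0011, against -0.0026 for all probe sets. That member was Lrrn3, with an averaged difference of -0.18 (adjusted p = 0.622). The highest averaged differences were those of Sema3c (0.45), Lrrc42 (0.34) and Sema6d (0.21), and the lowest those of Epha7, Lrrc4c (-0.48) and Pcdh9. All 6 semaphorins lay above 0, by 0.03 to 0.45, also under quantile normalization and median centring, and none passed. In all 6 same-numbered pairs Cntn1 and Sema6d were higher in labelled mutant arrays (background 4.45%), and Cntnap1, Efna3, Epha7 and Pcdh9 were lower (background 6.52%). Together they were 14.3% of the members, against 11% of all probe sets. The smallest of the 6 differences was only 0.0024 for Cntn1 and 0.00069 for Cntnap1. A second Cntn1 probe set had an averaged difference of -0.02, higher in 4 pairs and lower in 2.

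With saline, 0 of 42 members passed between labelled mutant and control arrays (background 0%), or with the block (background 0.142%), and 0 had an unadjusted p under 0.05 (background 3.88%). The highest differences were those of Sema3c (0.65), Sema4g (0.37) and Lrrc42 (0.36), and the lowest those of Epha7, Pcdh9 (-0.32) and Efna3 (-0.20). Values did not overlap for Plxnb1, which was higher (2.38% of the members, background 4.48%, or 8.81% in either direction), with a mean of 7.05 ± 0.211 in labelled mutant arrays and 6.69 ± 0.0970 in control arrays (SD, n = 3 each). A second Plxnb1 probe set had a difference of 0.05, and its values overlapped. The values of 0 members were lower without overlap (background 4.33%).

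After kainate, 0 of 42 members passed between the genotypes (background 0.0632%), or with the block (background 0.111%), and 1, Lrrn3, had an unadjusted p under 0.05 (background 4.67%). The highest differences were those of Slit3 (0.40), Lrrc42 (0.31) and Sema3c (0.25), and the lowest those of Lrrc4c (-0.85), Epha7 and Nrxn2 (-0.45). Values did not overlap for 7 members, all lower in labelled mutant arrays (16.7%, background 7.63%), namely Lrrc4c, Pcdh9, Lrrn3, Robo4, Cntn2, Efna3 and Cdh13, and for 0 higher (background 3.09%). Lrrn3 had 7.57, 7.72 and 7.76 in labelled mutant arrays and 7.95, 7.92 and 7.96 in control arrays, a difference of -0.26. The differences of Cdh13 (-0.05), Efna3 (-0.06), Cntn2 (-0.19) and Robo4 (-0.25) were smaller. With arrays centred on their medians, the median of all probe sets moved from -0.03 to 0.07 and 10 of the 42 signs turned. The largest difference that turned was that of Efna3, and none of the 3 highest and 3 lowest did. In further probe sets of Cdh13 (-0.06 and 0.13) and Cntn2 (-0.38) the values overlapped.

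**Figure D4:**
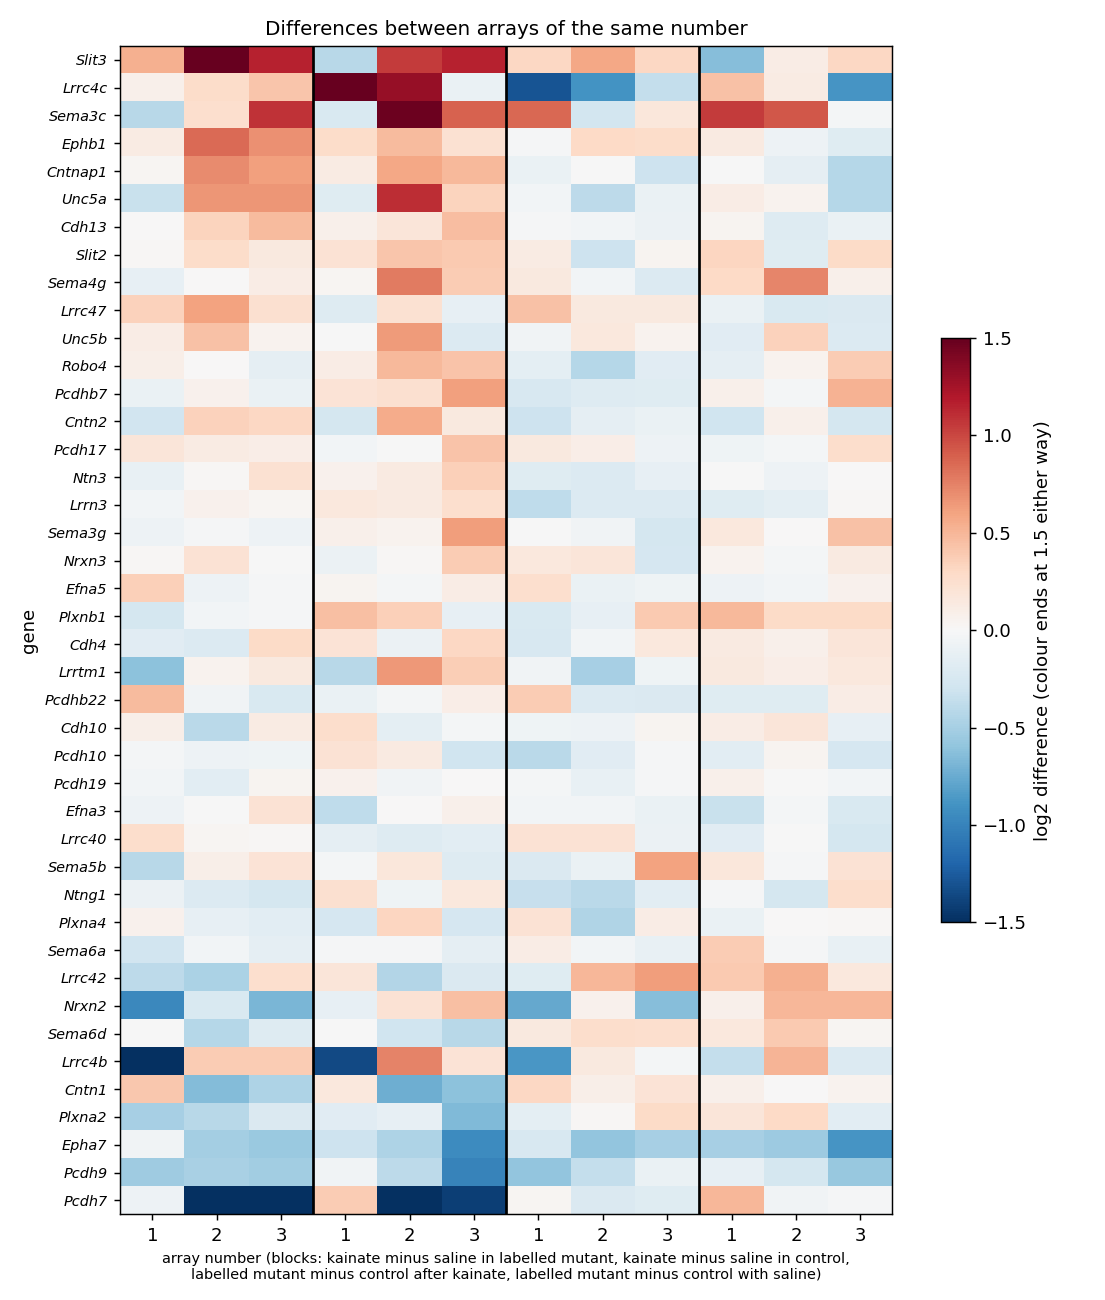
Log2 differences between arrays of the same number for all 42 members (rows, ordered by the averaged kainate change), in 4 blocks of columns: kainate minus saline in labelled mutant and in control animals, and labelled mutant minus control after kainate and with saline. Red is higher and blue lower in the group named first; the Epha7 row is blue in all 12 columns, and the Pcdh7 row is dark blue only in the kainate columns numbered 2 and 3.

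Other genes of the same pathways were read from lists of guidance and adhesion genes outside the symbol families. Of 67 listed surface proteins 29 were measured, and of 52 listed proteins that act inside the cell 19 were measured. None of these passed in any of the 7 comparisons without the block. With it, the kainate comparison averaged over genotypes called 4 of the 29 and 2 of the 19, against 7.63% of all probe sets (2.21% higher and 5.42% lower). The surface list had 2 members higher after kainate, the adhesion molecules L1cam (0.27, adjusted p = 0.0498) and Ntm (0.26, adjusted p = 0.0429). It had 2 lower, the semaphorin co-receptor Nrp2 (-0.29, adjusted p = 0.0455) and the limbic adhesion molecule Lsamp (-0.75, adjusted p = 0.034). Inside the cell, Apba1, an adaptor of the presynaptic release machinery, was higher (0.52, adjusted p = 0.0038, and 0.67 with adjusted p = 0.0131 in labelled mutant animals alone), and Trio, a signalling protein downstream of netrin receptors, was lower (-0.38, adjusted p = 0.0351). The medians of the 2 lists for kainate were 0.03 and 0.06, against 0.01 for all probe sets.

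A further 14 symbols that match the patterns did not pass the filter, and their levels could not be compared. They were Cdh17, Cntnap2, Efnb1, Epha10, Lrrc45, Lrrc49, Pcdh1, Pcdh12, Plxna3, Plxna4os1, Sema3a, Sema3d, Sema4c and Slit1, and each exceeded 4 in at most 2 arrays. Lrrc45 and Lrrc49 match by letters alone, and Plxna4os1 is named as a transcript opposite to Plxna4 and not as a plexin. Just inside the filter lay Pcdhb22, with 3 arrays over 4, and just outside it Lrrc49 and Slit1, with 2 each.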

How the data were processed

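Expression was measured in 12 pools of hippocampal RNA, 3 arrays in each of 4 groups, and all columns of the deposited table were used. The deposited log2 values were made by the authors with GCRMA in R 2.4.1, as the submitters' processing notes name these tools. GCRMA estimates background from each probe's sequence and combines the probes of a set. The sources used here do not give its settings, and the scale was judged from the values. Of the probe sets without Affymetrix controls (12411), 10581 had 1 symbol in the platform annotation, 178 had several and 1652 had none. Those with several named no gene. By Entrez identifier all 42 members were found in the GRCm38.p6 gene table under the same symbol.

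The 6334 probe sets that exceeded 4 in 3 or more arrays were fitted with limma 3.58.1 in R 4.3.3 (1 mean per group, eBayes with an intensity trend). Benjamini-Hochberg adjustment ran over all of them within each of 7 comparisons, with a threshold of 0.05. The fit without the block was tested on simulated arrays whose deviations were independent, with no effect shared by arrays of the same number. That test does not bear on the fits with the block. All 18 same-numbered pairs of arrays in different groups had correlated deviations above 0.1, so the array number was treated as a pairing. Much of it is the gap between number 1 and the rest, though arrays numbered 2 and 3 also correlated with each other at r from 0.309 to 0.583. What a number marks is not in the labels. Values with the number as a block are therefore given beside the others. The alternatives were quantile normalization, median centring, no filter, a filter at 5, no intensity trend, the block and leaving out each array. Fits of the arrays numbered 2 and 3 alone, of the block after quantile normalization and of the block without each array were added after seeing the data.

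The members, gene lists, markers and tests were chosen with earlier results of these data known. Every member is named, and values per array are given for Epha7 and for members that passed in any comparison or had an unadjusted p under 0.01. Values per array of Sema3c, Lrrc4c, Lrrn3 and the 5 genes plotted for the arrays numbered 1 were chosen after their values were seen. The other members are given by range and by the 3 highest and 3 lowest changes of each comparison. Promoter windows are RefSeq's, of GRCm38.p6. Levels of different probe sets are not compared.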

Additional observations from a re-analysis of the deposited data

Results flagged for a closer look

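A set of 5 differences is listed because all same-numbered pairs of one group went one way and all pairs of the other the opposite way. With 3 pairs on each side this was not a test of the difference, and in limma's test of the difference itself none passed (adjusted p = 1.00 for each without the block). The share of all tested probe sets that met the rule for this list was not counted, so the number listed is no result about the members. After kainate Lrrc40 was higher by 0.10 on average in labelled mutant animals and lower by 0.16 in control animals, a difference of 0.262 between the responses (with the block, adjusted p = 0.621). Sema3g, a secreted semaphorin, changed by -0.06 in labelled mutant animals and by 0.25 in control animals, a difference of -0.308 (with the block, adjusted p = 0.581). Seen by genotype, Sema3g differed between labelled mutant and control arrays by -0.11 after kainate and by 0.20 with saline, which is the same difference of -0.308 from the same arrays. The Sema3g pair closest to 0 differed by only -0.0014 after kainate and by 0.0072 with saline. Lrrc47 differed between labelled mutant and control arrays by 0.24 after kainate and by -0.18 with saline, a difference of 0.425 (with the block, adjusted p = 0.545). A second Lrrc47 probe set did not show the opposite directions, at 0.14 after kainate and 0.0088 with saline. Lrrtm1, a postsynaptic partner of neurexins, differed by -0.21 after kainate and by 0.13 with saline, a difference of -0.341 (with the block, adjusted p = 0.744). No explanation of these was tested.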

How the results depend on the processing

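The count of members past an adjusted p of 0.05 was 0 in all 7 comparisons without the block, and stayed at 0 under quantile normalization, median centring, no filter, the filter at 5 and no intensity trend. The count differed from 0 only in fits that used the block or left arrays out, and with the block it also moved under quantile normalization. For kainate averaged over genotypes, 7 members passed with the replicate block, 4 with the block after quantile normalization and 13 in the arrays numbered 2 and 3 alone, and 0 to 1 when 1 array was left out. The 1 was Ephb1 without the labelled mutant kainate array numbered 1. For kainate in labelled mutant animals 6 members, and in control animals 8, passed in the arrays numbered 2 and 3 alone. For labelled mutant against control averaged over treatments, 1 member passed with the replicate block and 1 with the block after quantile normalization. Leaving 1 array out of the blocked fits gave 0 to 10 members for kainate and 0 to 1 for the genotype. Each of the 7 kainate calls was lost without any of the 8 arrays numbered 2 or 3, and that of Plxna2 also without the control saline array numbered 1. The cause was not tested. The block changed no other count of members. For Epha7 and the other 6 genes, 0 of the changes reversed under any alternative.

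With 3 pooled arrays a group, precision is low. Without the block, the median 95% half-width of a member's change was 0.415 within a genotype and 0.294 averaged over both. Directions of small changes turn with scaling, for up to 15 of the 42 members in the difference of responses under median centring and for 0 in the genotype comparison averaged over treatments.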
